A study of Mus musculus with 8 samples.

Results

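The transcripts of 10 matrix protease and inhibitor genes were followed in mouse retinas with oxygen-induced retinopathy after knockdown of the long noncoding RNA MM2P. The genes were taken by name from the table of 57010 genes: the gelatinases Mmp2 and Mmp9, the membrane-type metalloproteinases Mmp14, Mmp15 and Mmp24, the secreted proteases Adamts1 and Adamts4, and the tissue inhibitors of metalloproteinases (TIMPs) Timp2, Timp3 and Timp4. All 10 were found, once each. The 4 knockdown libraries came from retinas given an scAAV (a self-complementary form of the adeno-associated virus used to deliver genes) directed against MM2P, and the 4 control libraries from retinas given a control scAAV. Both groups were C57BL/6J mice aged 17 days with the retinopathy, in which young mice lose retinal capillaries in high oxygen and form abnormal new vessels once back in room air. One label of the knockdown group reads as a knockout, while the design text speaks of a knockdown. The sources used here do not give the vector's promoter, the cells it reached or whether the replicates were separate animals, so the p-values measure the spread between these samples, which may in part be technical.

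Matrix metalloproteinases are zinc enzymes made as inactive precursors that cut collagens, laminins and other matrix proteins. ADAMTS enzymes are related secreted proteases that cut proteoglycans, and TIMPs bind the active site of these enzymes and block it. In the retina this balance acts on the basement membrane through which new vessels sprout, and Timp3 protein is a known component of Bruch's membrane under the pigment epithelium.

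Library totals were 16025695 to 20163448 estimated counts in the knockdown group and 20450312 to 21402898 in the controls. The 10 markers of Müller glia, the radial glia of the retina, summed to 5710 to 6123 TPM (transcript levels corrected for gene length and library size) in knockdown and 5777 to 6067 TPM in control libraries, so the tissue carried transcripts that its label names. The target itself, Mm2pr in the table, had 0, 0, 2 and 20.6 counts in the knockdown libraries and 1, 1, 16.95 and 7.34 counts in the controls, too few to check the labels. Some libraries stood apart, and lens genes differed between the groups. Lens genes summed to 351 TPM in knockdown 3 and 31.0 to 83.3 TPM in the other knockdown libraries, against 2.90 to 5.74 TPM in the controls. All 7 tested lens markers were positive (median log2 fold change 6.43), and edgeR called 5 of them higher. These 5 were among the 10 genes called over all tested genes, and the cause was not tested. Gfap, the intermediate filament gene of astrocytes and reactive Müller glia, had 121 TPM in knockdown 1 and 30.6 to 43.5 TPM in the other knockdown libraries, against 37.1 to 61.9 TPM in the controls. The libraries also differed in sex-linked transcripts: the Y-linked Ddx3y had 0 counts in knockdown 1, knockdown 3 and control 1, and Xist of the inactive X had 16 counts in control 3, against 21026 to 49127 counts in the other 7 libraries. Knockdown 2, knockdown 4, control 2 and control 4 held both transcripts. They had 814 to 1038 Ddx3y counts, against 1919 in control 3, and 21026 to 28658 Xist counts. Whether these libraries pooled animals was not tested. In bulk tissue, fewer cells of a type and less RNA per cell cannot be told apart.

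None of the 10 genes passed the test for a difference between the groups. Of the 9 that were tested, 0 passed at an adjusted p under 0.05 in edgeR's quasi-likelihood test, and 0 had an unadjusted p under 0.05. DESeq2 and limma on log2(TPM + 1) also called 0 of them, with 0 at an unadjusted p under 0.05. With knockdown 4 left out 2 genes (Mmp9 and Mmp14) had an unadjusted edgeR p under 0.05, and without the expression filter 1 had (Mmp9), with 0 called in either. Over all 16118 tested genes, 0.062% were called and 5.27% had an unadjusted p under 0.05. For every one of the 10 genes the TPM ranges of the groups overlapped, whereas the groups did not overlap for 2.95% of all tested genes. Fold changes were positive for 5 and negative for 4 of the genes, beside 48.2% negative over all tested genes. Their median log2 value was 0.0049, beside 0.0039 over all tested genes. The lowest bound of any of the 9 intervals of 95% was 0.753-fold (Mmp9) and the highest 1.38-fold (Adamts4).

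**Figure D1:**
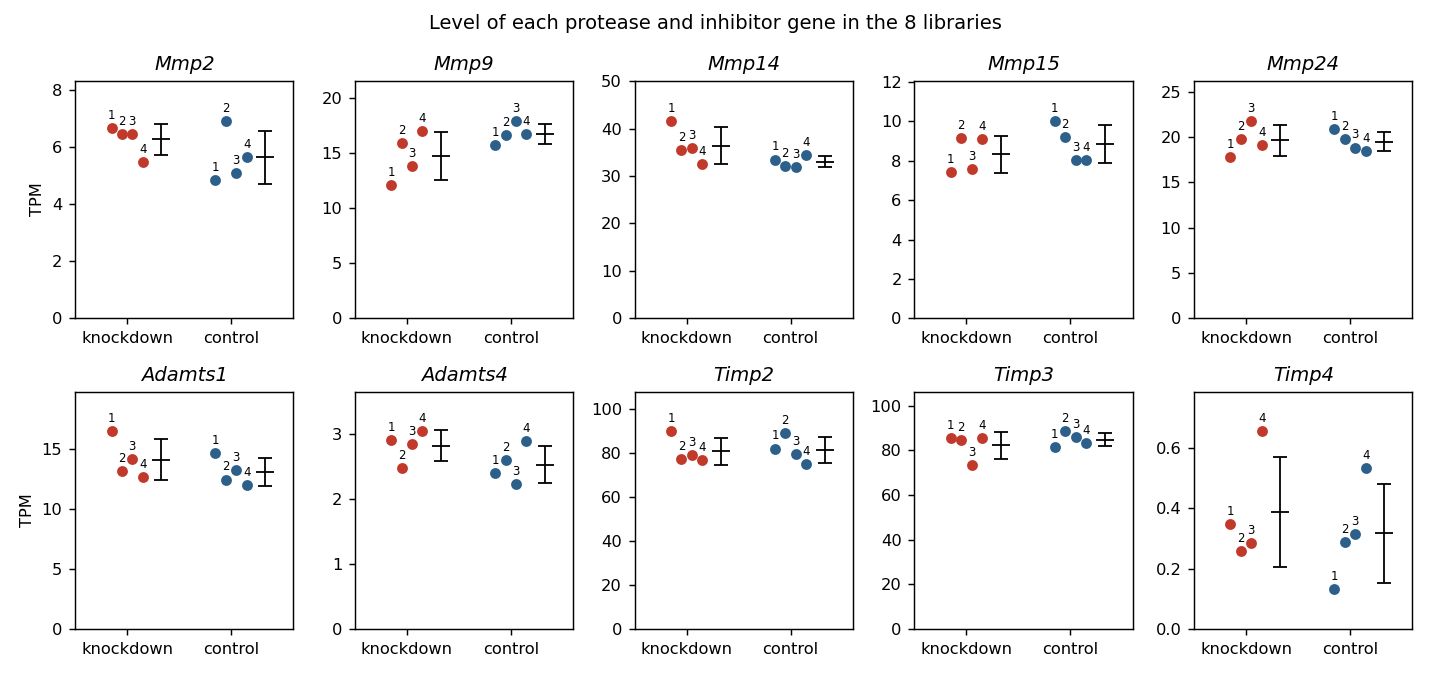
TPM of each of the 10 genes (vertical axes, each from 0) in the 4 knockdown libraries (red, left) and the 4 control libraries (blue, right), numbered by replicate; the black bar beside each set of points is the mean with its SD (n = 4). The points of the groups overlap in all 10 panels, and knockdown 1 is the lowest point for Mmp9 and the highest for Mmp14, Adamts1 and Timp2.

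The inhibitors Timp3 and Timp2 were the most abundant of these transcripts, and the inhibitor Timp4 was the least abundant. Timp3 averaged 82.3 ± 5.96 TPM in knockdown and 84.9 ± 3.11 TPM in control libraries (SD, n = 4 each), and Timp2 80.9 ± 6.19 and 81.5 ± 5.84 TPM. Averaged over the 8 libraries, levels then fell in the order Mmp14 (34.7 TPM), Mmp24 (19.5), Mmp9 (15.7), Adamts1 (13.6), Mmp15 (8.58), Mmp2 (5.95), Adamts4 (2.67) and Timp4 (0.353). Some neighbours in that order did not separate. Timp3 was above Timp2 in 4 of 8 libraries and Mmp9 above Adamts1 in 6 of 8. Mmp24 was above Mmp9 in 8 of 8, although their ranges overlapped, and the other neighbours had ranges that did not overlap.

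Added up, the 3 inhibitors had 163.5 ± 9.41 TPM in knockdown and 166.7 ± 8.08 TPM in control libraries. The 3 membrane-type metalloproteinases had 64.3 ± 2.63 and 61.3 ± 2.29 TPM, the 2 gelatinases 20.98 ± 1.79 and 22.4 ± 1.299 TPM, and the 2 Adamts genes 16.9 ± 1.76 and 15.6 ± 0.999 TPM. Within this set of 10 genes, inhibitor transcripts thus outnumbered those of the 7 proteases in every library. The ratio of the sums was 1.6 ± 0.0823 in knockdown and 1.68 ± 0.0836 in control libraries (SD, n = 4 each). Its ranges of 1.49 to 1.67 and 1.61 to 1.78 overlapped. The ratio holds for these 10 genes only. The 17 other Adamts genes summed to a mean of 67.7 TPM in knockdown and 64.2 TPM in control libraries. The 18 other matrix metalloproteinases summed to 21.5 and 20.97 TPM. The list of other metalloproteinase inhibitors and cofactors summed to 531 and 540 TPM. It also holds the protease genes Furin, Pcsk5 and Pcsk6 and the genes Rhbdf1 and Rhbdf2, so its sum is not one of inhibitors alone. The balance over these wider lists was not tested.

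**Figure D2:**
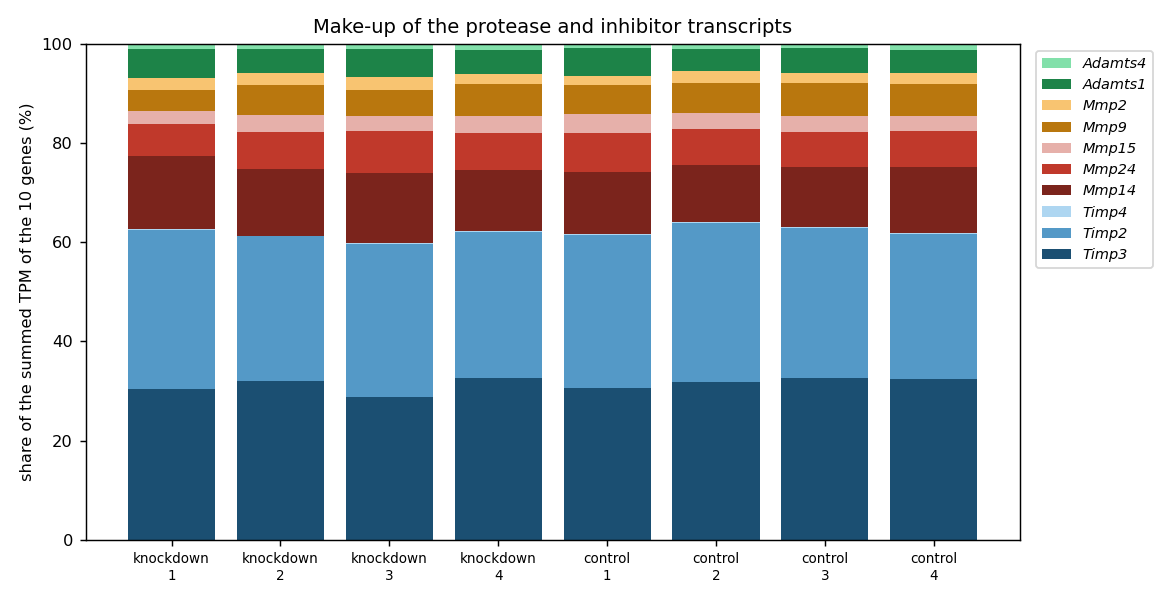
Share of the summed TPM of the 10 genes (vertical axis, in percent) held by each gene in the 4 knockdown libraries (left) and the 4 control libraries (right); inhibitors are blue, membrane-type metalloproteinases red, gelatinases orange and Adamts genes green. Timp3 and Timp2 are the tallest segments of every bar, with mean shares of 31.0% and 30.4% in knockdown libraries and 31.9% and 30.6% in controls.

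The gelatinases cut denatured collagen and type IV collagen of basement membranes. Mmp9, gelatinase B, which activated leukocytes and endothelial cells release (ENSMUSG00000017737; chromosome 2, 164940780 to 164955850), had 12.1, 15.9, 13.8 and 17.0 TPM in knockdown libraries 1 to 4. The controls had 15.7, 16.7, 18.0 and 16.7 TPM. Knockdown 1 and knockdown 3, both without Ddx3y counts, lay below every control, and knockdown 2 and knockdown 4 lay within their range. Control 1, also without Ddx3y counts, was the lowest control at 15.7 TPM. Mmp9 had the smallest p of the 9 genes: its log2 fold change was -0.19 (SE 0.10, 95% interval -0.41 to 0.022, edgeR adjusted p = 0.936; unadjusted 0.0744). It was -0.13 without knockdown 1 and -0.13 with Ddx3y as a covariate, and -0.27 without knockdown 4 (edgeR adjusted p = 0.792) and -0.20 without the expression filter (edgeR adjusted p = 0.845). Neutrophils store MMP9 protein, and the neutrophil list summed to 2.53 to 5.31 TPM in knockdown and 1.39 to 2.97 TPM in control libraries, with Mpo, Elane and Ly6g at 0 counts in all 8. The macrophage list, 10 genes such as Csf1r and Aif1, summed to 63.9 to 89.6 TPM in knockdown and 60.7 to 81.2 TPM in control libraries, ranges that overlapped. The part of either list, or of sex, in the Mmp9 level was not tested.

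Mmp2, gelatinase A, is a widely expressed stromal enzyme whose precursor is activated at the cell surface by Mmp14 with the help of Timp2 (ENSMUSG00000031740; chromosome 8, 92827291 to 92853420). Its level was 6.66, 6.47, 6.48 and 5.48 TPM in knockdown libraries 1 to 4, against 4.86, 6.93, 5.09 and 5.67 TPM in the controls. The highest and the lowest value were both controls, and the fold change was within the spread (log2 0.15, SE 0.14, interval -0.14 to 0.45, edgeR adjusted p = 0.989). It was 0.085 without control 1 and 0.25 without control 2. With 122 to 175 counts a library, counting error alone gives a coefficient of variation of 8.35%, while the libraries of a group varied by 13.1%. All 8 Mmp2 values carried fractions of a count, so some of its reads were shared out by the authors' counting. Per library Mmp9 transcripts were 1.82 to 3.10 times those of Mmp2 in the knockdown group and 2.40 to 3.53 times in the controls.

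Membrane-type metalloproteinases act on the surface of the cell that makes them. Mmp14, or MT1-MMP, the collagenase of sprouting endothelial tip cells and invading cells (ENSMUSG00000000957; chromosome 14, 54431612 to 54445364), had 41.7, 35.4, 35.9 and 32.5 TPM in knockdown libraries 1 to 4, against 33.5, 32.2, 32.0 and 34.4 TPM in the controls. Knockdown 1, 2 and 3 lay above all controls, and knockdown 4 among them. The log2 fold change was 0.14 (SE 0.09, interval -0.052 to 0.33, edgeR adjusted p = 0.972). It depended on the libraries included: without knockdown 1 the value was 0.041, and without knockdown 4 it was 0.20 (edgeR adjusted p = 0.890). The level of Timp2, which both blocks Mmp14 and helps it to activate Mmp2, was 2.16 to 2.37 times that of Mmp14 in knockdown and 2.18 to 2.77 times in control libraries.

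Mmp15, or MT2-MMP, is found in many epithelia (ENSMUSG00000031790; chromosome 8, 95352268 to 95375080). It had 7.45, 9.17, 7.60 and 9.08 TPM in knockdown libraries 1 to 4, against 10.05, 9.23, 8.03 and 8.07 TPM in the controls. Knockdown 1 and knockdown 3 were below every control, as they were for Mmp9, and the fold change did not pass (log2 -0.09, SE 0.10, interval -0.30 to 0.13, edgeR adjusted p = 0.989). Control 1, also without Ddx3y counts, was here the highest of all libraries, unlike for Mmp9. The fold change of Mmp15 was -0.027 without control 1, -0.14 without knockdown 2 and -0.082 with Ddx3y as a covariate. Mmp24, or MT5-MMP, is the family member of neurons, where it cuts adhesion proteins such as N-cadherin (ENSMUSG00000027612; chromosome 2, 155775342 to 155818366). Knockdown libraries had 17.8, 19.8, 21.8 and 19.1 TPM and controls 20.8, 19.7, 18.8 and 18.5 TPM. Of the 9 tested genes Mmp24 had the fold change nearest to 0, at 0.0049 on the log2 scale (SE 0.07, interval -0.14 to 0.15, edgeR adjusted p = 0.998). It shares 637 of its 4683 exonic bases with BC029722 on the opposite strand, and whether the counting used strand is not given.

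Promoter sequences of 7 of the 10 genes were at hand from RefSeq (build GRCm38.p6, 250 bases before to 50 after the gene's start), those of Mmp14, Mmp15, Mmp24, Adamts1, Timp2, Timp3 and Timp4. Mmp14 and Mmp24 hold the letters GCGNGGGCG, the binding motif of the Egr transcription factors, which was searched on both strands. They are shown because the Egr1 transcript was lower in the knockdown: 63.9, 79.9, 72.8 and 47.1 TPM, against 367, 369, 185 and 154 TPM in the controls (log2 fold change -2.02, SE 0.24, edgeR adjusted p = 0.0186). This edgeR call was lost without control 1 (-1.84, adjusted p = 0.0633), without control 2 (-1.85, adjusted p = 0.0727) and with a robust dispersion (adjusted p = 0.522). It was also lost in limma on log2(TPM + 1) (adjusted p = 0.0740) and on log2(TPM + 5) (adjusted p = 0.290), although the groups did not overlap. Egr1 is known to act on the Mmp14 promoter in cultured rodent endothelial cells. The capitals mark the motif in the 250 bases before each start, 5′ to 3′ on the plus strand.
Mmp14 (chr14:54431348-54431597): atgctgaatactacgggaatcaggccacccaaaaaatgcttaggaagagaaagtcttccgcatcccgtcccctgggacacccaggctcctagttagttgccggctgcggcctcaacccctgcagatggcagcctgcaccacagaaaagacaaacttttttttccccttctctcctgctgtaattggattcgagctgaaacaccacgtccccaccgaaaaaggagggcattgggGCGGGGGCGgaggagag
Mmp24 (chr2:155775092-155775341): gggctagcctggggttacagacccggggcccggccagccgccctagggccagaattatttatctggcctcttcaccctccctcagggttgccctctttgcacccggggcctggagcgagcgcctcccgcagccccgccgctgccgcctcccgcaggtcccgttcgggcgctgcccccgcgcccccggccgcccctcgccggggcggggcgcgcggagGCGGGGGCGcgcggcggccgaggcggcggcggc
The motif lies at positions -17 to -9 in Mmp14 and -33 to -25 in Mmp24, counted from the RefSeq start, the base after the printed stretch; for Mmp14 this start lies upstream of the GENCODE start given above. Of all 32851 promoter windows 5.55% held it. The GC box GGGCGG, bound by Sp1, was in 6 of the 7 promoters, all but that of Timp4, and in 35.7% of all windows. In Mmp14 both GC boxes overlap the Egr motif. The AP-1 motif TGANTCA, found in 7.81% of all windows, was in 0 of the 7, and the hypoxia element core ACGTG, found in 19.6%, was in Mmp14 alone. Neither Mmp14 nor Mmp24 passed the test, as given above.

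The ADAMTS proteases cut the large proteoglycans of the matrix around cells. Adamts1, a versican- and aggrecan-cleaving enzyme that also restrains vessel growth (ENSMUSG00000022893; chromosome 16, 85793827 to 85803113), had 16.4, 13.1, 14.2 and 12.6 TPM in knockdown libraries 1 to 4. The controls had 14.7, 12.4, 13.2 and 12.01 TPM. Knockdown 1 was above every control and the other 3 were inside their range. The log2 fold change of 0.11 (SE 0.10, interval -0.11 to 0.33, edgeR adjusted p = 0.989) was -0.0024 without knockdown 1 and 0.16 without knockdown 4. Adamts4, the aggrecanase of cartilage, which oligodendrocytes of the mouse brain also make (ENSMUSG00000006403; chromosome 1, 171250421 to 171260637), had 2.91, 2.48, 2.84 and 3.03 TPM in knockdown and 2.40, 2.59, 2.22 and 2.89 TPM in control libraries. The ranges overlapped and the gene did not pass (log2 0.15, SE 0.15, interval -0.16 to 0.47, edgeR adjusted p = 0.989). Adamts4 is read from 79 to 108 counts a library, for which counting error gives 10.4% and the libraries of a group varied by 10.03%. Of the 10 endothelial markers, such as Pecam1 and Cdh5, 9 were negative (median log2 value -0.21), with 0 called by edgeR and 6 at an unadjusted p under 0.05. Their summed level was 286 to 299 TPM in knockdown and 287 to 349 TPM in control libraries. Of the 10 pericyte markers 8 were negative (median -0.14), with 0 called and 4 at an unadjusted p under 0.05, and their sum was 235 to 252 TPM in knockdown and 247 to 298 TPM in control libraries. Over all tested genes, 5.27% had an unadjusted edgeR p under 0.05. The part of the endothelial and pericyte lists in the values of Mmp2, Mmp14 and Adamts1, whose fold changes were positive, was not tested.

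Among the inhibitors, Timp2 binds both Mmp2 and Mmp14 (ENSMUSG00000017466; chromosome 11, 118301069 to 118355740). Its levels were 90.01, 77.2, 79.2 and 76.9 TPM in knockdown libraries 1 to 4, against 82.2, 89.0, 79.7 and 75.0 TPM in the controls. Knockdown 1 and control 2 were the high libraries, one in each group. The log2 fold change was -0.011 (SE 0.07, interval -0.16 to 0.14, edgeR adjusted p = 0.998), and -0.09 without knockdown 1.

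Timp3 stays bound to the matrix, inhibits ADAMTS enzymes and sheddases as well as metalloproteinases, and is mutated in Sorsby fundus dystrophy, an inherited macular disease (ENSMUSG00000020044; chromosome 10, 86300372 to 86349506). It had 85.4, 84.6, 73.4 and 85.7 TPM in knockdown libraries 1 to 4, against 81.5, 88.6, 86.1 and 83.3 TPM in the controls. Only knockdown 3 stood apart, and the other 7 libraries lay within 81.5 to 88.6 TPM. The interval of its fold change was the narrowest of the 9 genes, -0.18 to 0.090 on the log2 scale (estimate -0.046, SE 0.06, edgeR adjusted p = 0.993), and without knockdown 3 the estimate was 0.015. Timp3 is known from the retinal pigment epithelium, whose 10 markers summed to 299 TPM in knockdown 3 and 310 to 394 TPM in the other knockdown libraries, against 314 to 377 TPM in the controls. Of the 9 tested markers 5 were positive and 4 negative (median log2 value 0.28), with 0 called by edgeR. At an unadjusted edgeR p under 0.05, 3 were higher and 1 was lower, beside 5.27% of all tested genes. Knockdown 3 was also the library richest in lens transcripts, as given above, and the part of either list in its Timp3 level was not tested. Timp3 lies inside the opposite-strand gene Syn3, with which it shares 1733 of 8144 exonic bases.

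Timp4, an inhibitor best known from heart, brain and fat (ENSMUSG00000030317; chromosome 6, 115241892 to 115252205), was under 1 TPM in all 8 libraries and was not tested with the others. It had 15, 11, 10 and 29 counts in knockdown and 6, 13, 15 and 25 counts in control libraries, or 0.348, 0.259, 0.286 and 0.656 TPM against 0.133, 0.289, 0.316 and 0.534 TPM. Library 4 was the highest of either group. When edgeR was run on all genes with counts, Timp4 had a log2 fold change of 0.27 (SE 0.42, adjusted p = 0.922). The interval of -0.57 to 1.11 was the widest of the 10 genes.

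**Figure D3:**
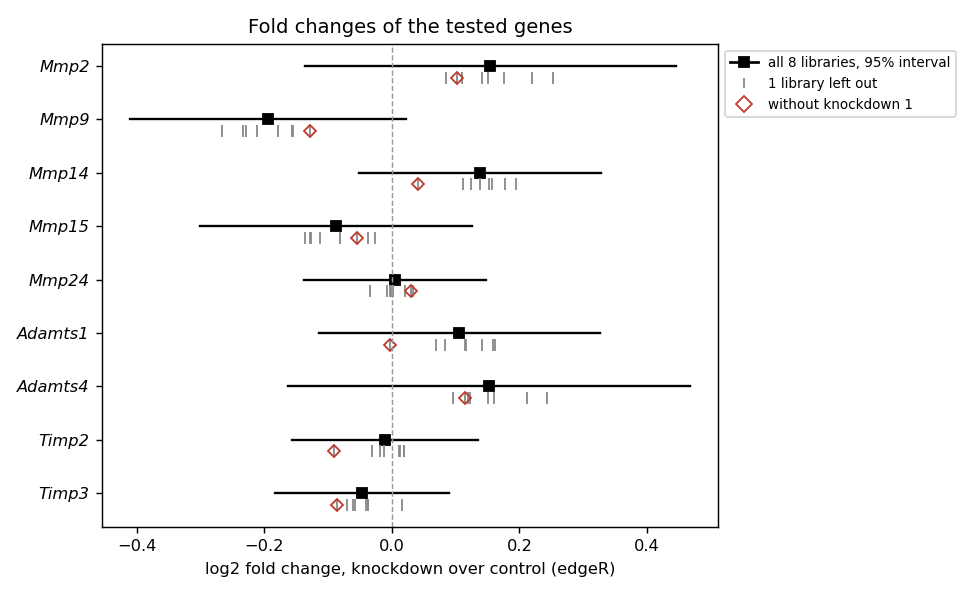
Log2 fold change of knockdown over control (horizontal axis) for the 9 tested genes: black squares are edgeR estimates with their 95% intervals, grey ticks the estimates with 1 library left out, and red diamonds those without knockdown 1. All 9 intervals include 0. Without knockdown 1 the values of Mmp2, Mmp9, Mmp14, Mmp15, Adamts1 and Adamts4 move towards 0. Those of Mmp24, Timp2 and Timp3 move away from 0.

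The wider protease network was read from 7 lists with 89 genes, of which 62 were tested. In edgeR 0 of the 62 passed over all genes, and 6 had an unadjusted p under 0.05; DESeq2 and limma on log2(TPM + 1) also called 0, with 7 and 1 at an unadjusted p under 0.05. The groups did not overlap in 1 of the 62, the sheddase gene Adam9. Over all tested genes, 5.27% had an unadjusted edgeR p under 0.05 and the groups did not overlap for 2.95%. Among other matrix metalloproteinases 5 of 18 were tested, 1 positive and 4 negative, with a median log2 fold change of -0.12. Mmp17, a glycolipid-anchored family member, led them at 6.94 ± 0.829 TPM in knockdown and 7.35 ± 0.211 TPM in control libraries, and Mmp16, or MT3-MMP, had 3.75 ± 0.527 and 4.07 ± 0.246 TPM (SD, n = 4). Mmp1a, Mmp1b, Mmp20 and Mmp27 had 0 counts in all 8 libraries.

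Of 17 other Adamts genes 11 were tested, 8 positive and 3 negative, with a median of 0.057. Adamts3, a procollagen-processing enzyme, was the most abundant at 27.2 ± 3.30 TPM in knockdown and 25.0 ± 4.26 TPM in control libraries, above Adamts1 in level. Adamts5, the other main aggrecanase, had 8.82 ± 0.523 and 8.45 ± 0.447 TPM. The smallest p belonged to Adamts12, at 1.31 ± 0.168 TPM in knockdown and 1.006 ± 0.0541 TPM in control libraries (edgeR log2 fold change 0.38 ± 0.16 SE, adjusted p = 0.907). Sheddases release membrane-bound ligands and receptors, and Timp3 inhibits several of them. Their 7 tested genes had 5 positive and 2 negative fold changes with a median of 0.064. Adam9 had 93.3 ± 3.57 TPM in knockdown and 87.6 ± 2.23 TPM in control libraries, its lowest knockdown value of 91.1 TPM lying just above the highest control value of 90.7 TPM (edgeR adjusted p = 0.951). Adam10, the sheddase of Notch and N-cadherin, had 51.4 ± 2.81 and 49.0 ± 2.36 TPM. The genes listed as other metalloproteinase inhibitors and cofactors were all tested, 8 of 11 positive and 3 negative, with a median of 0.033. Spock2 and Spock3, proteoglycans of the testican family, were the most abundant, at 264 ± 27.3 and 124.9 ± 16.7 TPM in knockdown libraries and 291 ± 15.6 and 124.1 ± 3.63 TPM in controls. Spock2 had an unadjusted p of 0.0308 and did not pass (edgeR log2 fold change -0.15 ± 0.06 SE, adjusted p = 0.903).

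Basement membrane and proteoglycan substrates had 5 positive and 8 negative fold changes among 13 tested, with a median of -0.09. The type IV collagen gene Col4a2 had the smallest p in the 7 lists, at 54.7 ± 4.51 TPM in knockdown and 64.1 ± 7.45 TPM in control libraries (edgeR log2 fold change -0.23 ± 0.07 SE, adjusted p = 0.489; 0.0496 when all genes with counts were tested). Nid1, which encodes the basement membrane linker nidogen, had 21.1 ± 1.13 and 23.8 ± 1.98 TPM (edgeR adjusted p = 0.730), and Col4a1 92.0 ± 4.55 and 104 ± 13.5 TPM (edgeR adjusted p = 0.852). These 3 genes were the members of the list with an unadjusted p under 0.05. The part of the endothelial and pericyte markers given above in these values was not tested. Plasminogen activators and serpins gave 3 positive and 4 negative fold changes among 7 tested of 11, with Serpini1, the neuronal serpin, at 55.2 ± 3.55 and 55.9 ± 2.58 TPM. Plgrkt, the plasminogen receptor gene, had 35.5 ± 1.77 and 35.2 ± 3.25 TPM. All 8 cathepsins and cystatins were tested, 4 positive and 4 negative. Cst3, the secreted cysteine protease inhibitor cystatin C, was the most abundant gene of the network at 1102 ± 121 TPM in knockdown and 1137 ± 57.5 TPM in control libraries, and the lysosomal protease gene Ctsb had 192 ± 14.2 and 192 ± 5.27 TPM.

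**Figure D4:**
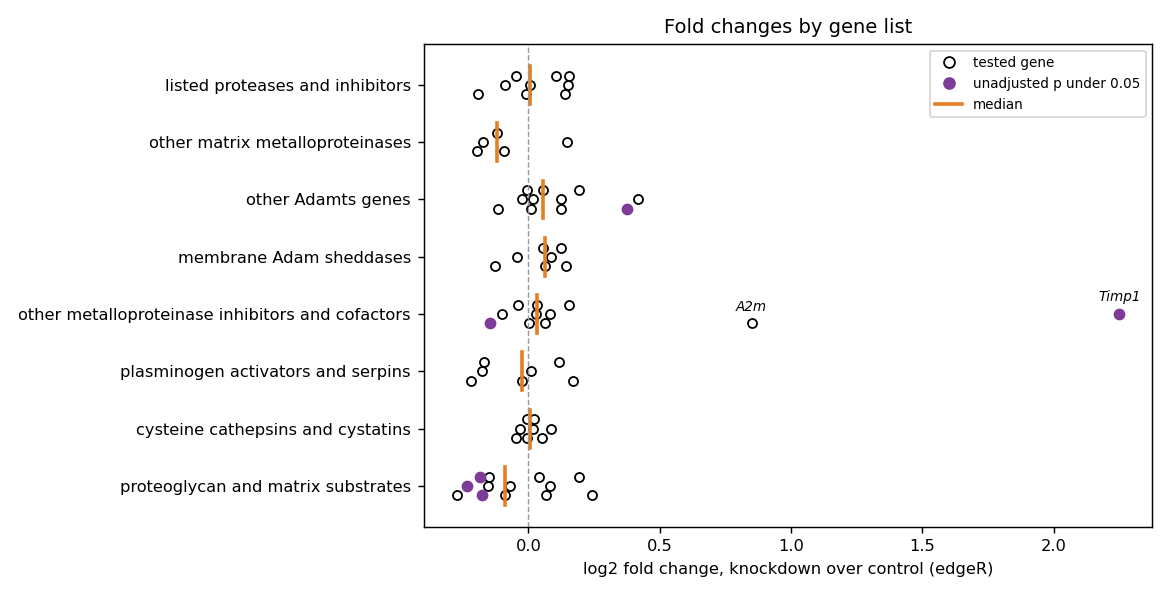
Log2 fold change of knockdown over control (horizontal axis) for the tested genes of each list; filled points have an unadjusted edgeR p under 0.05 and orange bars are list medians. All medians lie between -0.12 and 0.064, and Timp1 and A2m lie far to the right of the other genes.

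The inhibitor genes Timp1 and A2m were high in knockdown 1 alone, and the protease gene Mmp12 was highest there. Timp1, the inducible member of the TIMP family, had 26.6 TPM in knockdown 1 and 1.71, 3.78 and 1.19 TPM in the other knockdown libraries, against 1.17, 1.61, 3.34 and 0.986 TPM in the controls. A2m, the broad protease trap α2-macroglobulin, had 54.0 TPM in knockdown 1 and 11.4 to 13.2 TPM in the other knockdown libraries, against 11.5 to 14.6 TPM in the controls. The group means therefore differ through 1 library. The log2 fold change of Timp1 was 2.25 (SE 0.85, edgeR adjusted p = 0.831) and 0.25 without knockdown 1, and that of A2m 0.85 (SE 0.42, adjusted p = 0.934) and -0.08. Mmp12, macrophage elastase, did not reach the expression filter; it had 152, 38.9, 8.43 and 10.05 counts in knockdown libraries 1 to 4 and 4.76 to 18.0 counts in the controls, so 2 knockdown libraries were above all controls. Without the filter edgeR called Mmp12 (log2 2.75, adjusted p = 0.000356) and Timp1 (2.24, adjusted p = 0.00850), and with knockdown 1 also left out neither passed (1.29, adjusted p = 0.290; 0.26, adjusted p = 0.900). Mmp13, the collagenase of bone and cartilage, had 9 to 15 counts in knockdown and 2 to 9 counts in control libraries, with levels of 0.484 to 0.698 TPM above those of 0.0915 to 0.411 TPM, and did not pass without the filter (log2 1.32, adjusted p = 0.765). A2m, Mmp12, Mmp13, Gfap and Egr1 were chosen after their values were seen.

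Knockdown 1 was also the library in which 3 of the 10 genes were at their highest (Mmp14, Adamts1 and Timp2) and 3 at their lowest (Mmp9, Mmp15 and Mmp24). In that library the 10 ganglion cell markers summed to 1200 TPM, against 1396 to 1522 TPM in the other knockdown libraries and 1499 to 1603 TPM in the controls. Over the groups 9 of these 10 markers were negative (median log2 value -0.14), 5 with an unadjusted edgeR p under 0.05 and 1 of them called lower (adjusted p = 0.0465). Over all tested genes, 5.27% had an unadjusted edgeR p under 0.05 and 0.062% were called. The macrophage list was at its highest of 89.6 TPM in knockdown 1. The 8 astrocyte markers, Gfap among them, summed to 310 TPM in knockdown 1 and 181 to 198 TPM in the other knockdown libraries, against 174 to 196 TPM in the controls. The log2 fold change of Gfap was 0.29 (edgeR adjusted p = 0.989), and -0.41 without knockdown 1 (edgeR adjusted p = 0.520). Without knockdown 1 and the expression filter Gfap was called lower (-0.41, edgeR adjusted p = 2.39e-06). The part of these markers and of Gfap in the protease values was not tested. Without both knockdown 1 and control 3, the library with few Xist counts, the 9 tested genes had log2 fold changes between -0.10 and 0.058, with 0 calls.

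**Figure D5:**
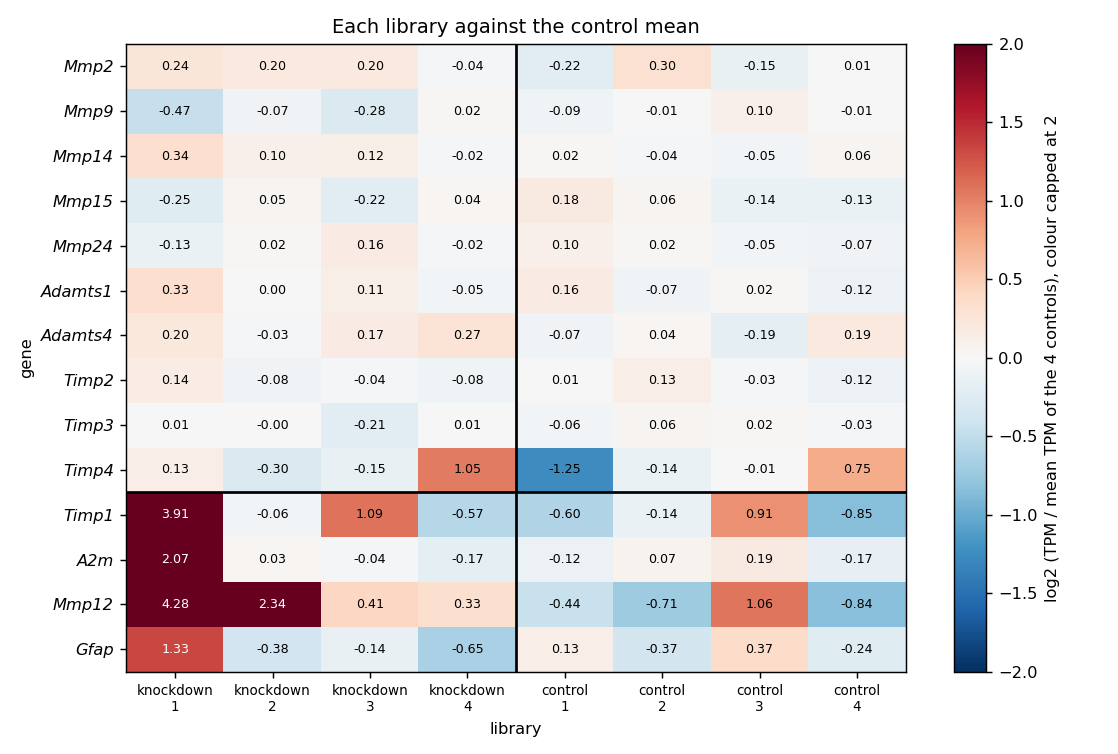
Log2 ratio of each library's TPM to the mean TPM of the 4 controls (colour and printed value) for the 10 genes (above the line) and for Timp1, A2m, Mmp12 and Gfap (below it); knockdown libraries are on the left and controls on the right. Knockdown 1 is red for the lower 4 genes, by 1.33 to 4.28, while the 9 tested genes stay between -0.47 and 0.34 in every library.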

How the data were processed

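Retinal RNA was measured in 8 libraries. The deposited table has TPM in its name, but its values show estimated counts: libraries total 16025695 to 21402898, and 90.6% to 91.9% of a library's values are whole. These shares include genes at 0, as 22895 to 23824 of the 57010 genes were above 0 in a library. The submitters' processing notes name Bowtie 0.12.2 and the build mm9 without saying what each was used for; the counting tool is not given. TPM was computed from these counts and the authors' deposited gene lengths.

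Counts were rounded. The 16118 genes that reached 1 TPM in 4 or more of the 8 libraries were tested with edgeR 4.0.16 in R 4.3.3 (TMM, quasi-likelihood, group as the only term), with Benjamini-Hochberg adjustment over all of them and calls at 0.05. SE was obtained by dividing the log2 fold change by the root of the F statistic, and 95% intervals use it. Values after ± are SDs of TPM or of the ratio of sums, except where marked as SE. The test was tried on simulated data. Alternatives used DESeq2 1.42.0 and limma 3.58.1. From each list the text names the genes with the smallest p, at most 2 with an unadjusted p under 0.05, and the 2 of highest TPM. The 10 genes and the lists were chosen with earlier results of these data known. Gene positions are from GENCODE M21 (GRCm38), in which all 10 identifiers were found; the authors' annotation is not given. Counting error is that of sampling reads; without molecular identifiers, reads can be copies of 1 molecule.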

Additional observations from a re-analysis of the deposited data

Results flagged for a closer look

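Dixon's criterion, which flags about 5% of sets by chance, was applied to the 4 libraries of each group. Of 62 sets tested, those of the 10 genes included, 8 were flagged. Among the 10 genes 2 of 20 sets held 1 library far from the others: Timp3 in knockdown 3, at 73.4 TPM against 84.6 to 85.7 TPM in the other knockdown libraries, and Mmp2 in knockdown 4, at 5.48 TPM against 6.47 to 6.66 TPM. Among the other genes named, of which A2m, Gfap and Mmp12 were chosen after their values were seen and Timp1 and Nid1 for their small p, knockdown 1 stood apart for Timp1 (26.6 TPM, against 1.19 to 3.78 TPM in the others), A2m (54.0 TPM, against 11.4 to 13.2 TPM) and Nid1 (19.5 TPM, against 21.4 to 21.8 TPM), and for the glial gene Gfap (121 TPM, against 30.6 to 43.5 TPM). In the controls Mmp16 was low in control 4 (3.70 TPM, against 4.16 to 4.22 TPM) and Mmp12 was high in control 3 (0.578 TPM, against 0.155 to 0.203 TPM).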

How the results depend on the processing

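Under 21 alternatives, 2 of them chosen after seeing the data (without control 3 and knockdown 1 together; no expression filter without knockdown 1), 0 of the 9 tested protease and inhibitor genes were called. Of their fold changes under these alternatives, with Timp4's where it could be fitted, 176 kept their direction. The 13 that did not were all within 0.035 of 0: Mmp24 at -0.0014 without the filter and -0.015 with Ddx3y as a covariate, Adamts1 at -0.0080 without the filter and knockdown 1, and the rest with 1 library left out, where ranges were -0.035 to 0.033 for Mmp24, -0.0024 to 0.16 for Adamts1, -0.090 to 0.020 for Timp2 and -0.086 to 0.015 for Timp3. Of the others Adamts4 ranged from 0.097 to 0.24 with 1 library left out, and the ranges of Mmp2, Mmp9, Mmp14 and Mmp15 stand beside their values. The number of genes called over all tested genes, 10 in edgeR, was 45 in DESeq2, 0 in limma on log2(TPM + 1) and on log2(TPM + 5) (804 and 802 at an unadjusted p under 0.05), 157 without the filter, 1 at a mean TPM of at least 5, 0 with a robust dispersion (833), 69 without control 3 and knockdown 1, 269 without the filter and knockdown 1, and 0 to 58 with 1 library left out (0 without control 1 and 0 without control 2, with 674 and 821 at an unadjusted p under 0.05; 58 without control 3; 1 without control 4); the cause was not tested. Without the filter 1 gene each of the other metalloproteinases (Mmp12), the other inhibitors (Timp1) and the substrates (Col4a2) was called, and 1 substrate gene again (Col4a2, adjusted p = 0.0434) without knockdown 1. Libraries with the same replicate number did not deviate together (correlations -0.156 to 0.0088), and a replicate block gave 11 genes and 0 of the 9. Timp4, Mmp12 and Mmp13 are limited by their low counts.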
